A study of Mus musculus with 24 samples.

Results

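Mouse hip caps, the cartilage caps avulsed from the femoral heads, were pressurised as explants at 50 MPa for 1 h and compared with control caps at 0 MPa, to ask how articular cartilage responds to a hydrostatic pressure in the injurious range. The comparison used 6 of the 24 RNA-seq libraries of the study, chosen by library name: H501, H503 and H504 at 50 MPa, and HC1, HC2 and HC3 as controls (n = 3 in each group). Each library pooled the 2 hip caps of 1 male C57/BL6 mouse aged 4 weeks. The caps of both groups were cultured for 24 h before and a further 24 h after the pressure step, so the RNA shows the tissue a day after loading, and the labels name no allele, transgene or drug in either group. The remaining library of each group, HC4 of the controls and H502 of the pressurised caps, was left out of the fit, as in the study, and its values stand beside the results as a check. The other libraries of the study, 4 hip cap libraries at 5 MPa and 4 libraries of embryonic C57/BL6 metatarsals at each of 0, 5 and 50 MPa, entered the fit and are named only where the hip caps at 50 MPa are set beside them. An explant of this kind has no blood supply and no load-bearing joint around it.

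Articular chondrocytes sit in a matrix that they make themselves, built on fibrils of type II, IX and XI collagen and on aggrecan, whose charged sugar chains hold water. Pressure in the fluid of the joint compresses these cells without much change of shape, and chondrocytes sense it through their pericellular matrix, ion channels and cytoskeleton. Injured cartilage is known for a loss of matrix gene expression under the transcription factor SOX9, for release of interleukin-1 and chemokines, and for matrix-degrading proteases.

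The 6 libraries held from 6731279 to 15027350 counts, of which 27.5% to 58.4% fell on protein-coding genes and 14.5% to 40.6% on a single gene. The chondrocyte markers were abundant in all 6, with Col2a1 at 51161, 29276 and 45293 CPM (counts relative to the depth of the library, scaled by the trimmed mean of M-values, TMM) in HC1, HC2 and HC3 and 20943, 24973 and 21320 CPM in H501, H503 and H504. All 3 libraries at 50 MPa are labelled unstranded, whereas HC1 and HC2 are labelled stranded and only HC3 unstranded. Because the fit of the study holds a term for library type, HC3 carried a weight of -0.76 in the comparison and HC1 and HC2 -0.12 each, so the fitted changes lean on 1 control mouse. Metatarsal libraries entered the comparison too, through the batch terms. The control MC1 had a weight of 0.24 and the 50 MPa library M504 one of -0.24. The other metatarsal controls had -0.08 each and the other metatarsals at 50 MPa 0.08 each. Library type and pressure cannot be told apart beyond what this term takes out. The left-out libraries stood apart from the groups they belong to. HC4, a control of the other sequencing run, had 6293 CPM of Col2a1, below every library at 50 MPa, and H502 had counts on 40905 genes, against 20490 to 28958 in the 6 libraries compared. In such bulk samples, fewer cells of a type and less RNA per cell cannot be told apart.

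Of 21283 genes tested, 1170 passed an adjusted p of 0.05 at 50 MPa (edgeR's quasi-likelihood test with Benjamini-Hochberg adjustment), 748 higher and 422 lower, or 5.50% of the genes, 3.51% higher and 1.98% lower. The median log2 fold change over all tested genes was 0.02. CPM values of the 2 groups did not overlap for 8.19% of tested genes in the higher direction and 7.56% in the lower. Among the genes called, 232 of the higher and 190 of the lower had groups that did not overlap, while 733 and 422 had every 50 MPa library above or below HC3, which 24.8% and 29.5% of all tested genes had. These counts rest on the 22-library fit with its batch terms: with the 6 libraries alone no gene passed and 1777 had an unadjusted p below 0.05, no gene passed in a fit of the 10 hip caps with library type (2003 below 0.05), and with HC4 and H502 put back 2 genes passed, Mob1b and Myef2 (3684 below 0.05). DESeq2 called 2483 genes in the same 22 libraries. An exact permutation test of 3 against 3 mice cannot go below p = 0.10 for any gene. Without HC3, 1 gene passed and it was not among the 1170, and leaving out HC2, H503 or H504 gave 2596, 310 and 1750 genes. With the trend of counts on GC content taken out of each library 195 passed (144 higher, 51 lower, 175 of them shared with the 1170). GC content went with the direction of the calls, with a median of 43.92% for transcripts of the genes called higher, 55.88% for those called lower and 49.89% over all tested genes. When the scaling factors were computed without the mitochondrial genome, 641 genes were called higher and 571 lower, so the higher share moved from 63.9% to 52.9%. Of the genes called, 333 overlap a gene on the other strand, whose reads the unstranded libraries cannot separate, and they were called about as often as the rest (5.67% against 5.43%). Genes named below that overlap in this way include Il1a, Ch25h, Mmp12, Myef2, Angpt1, Rhoq, Necab3, Chadl, Aspn, Lama2, Mt2, Dnaja1, Itpr3 and Ttn. This is not a full list, so a gene missing from it may overlap too.

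**Figure D1:**
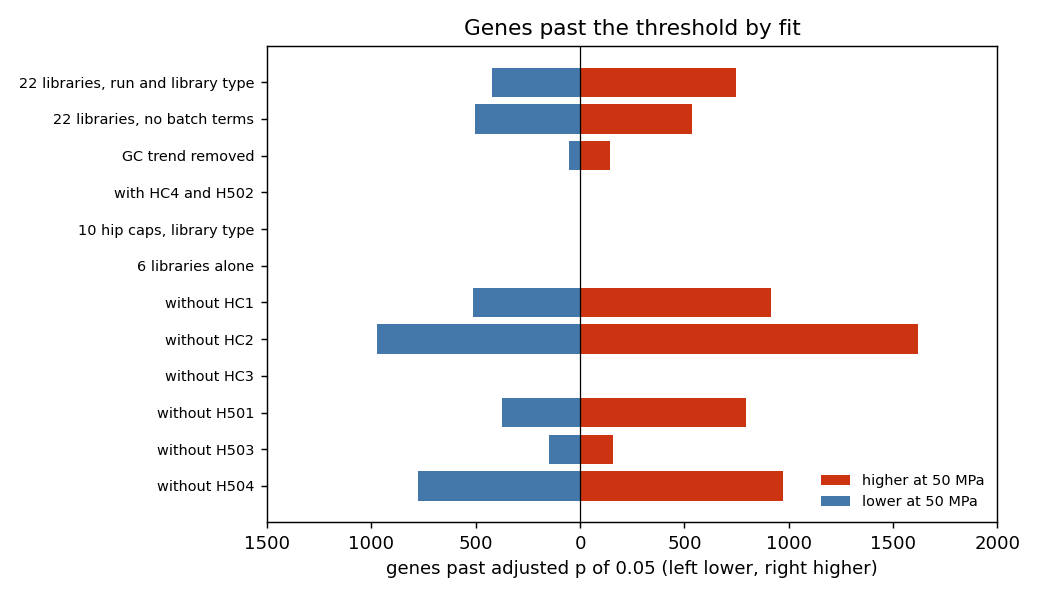
Number of genes past an adjusted p of 0.05 at 50 MPa against control in hip caps (horizontal axis, genes lower to the left in blue and higher to the right in red) under several fits (vertical axis). The 22-library fit gave 748 higher and 422 lower genes, whereas fits of hip caps alone gave 0.

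The 10 named genes with the lowest adjusted p-values come from genes whose groups did not overlap, at a mean of at least 1 CPM. Their separation was thus fixed by the choice. They were of mixed function, and 3 of them were lower at 50 MPa. Islr, which codes for a secreted leucine-rich repeat protein of mesenchymal cells, had 137, 108 and 155 CPM in HC1, HC2 and HC3 and 54.6, 64.8 and 64.4 CPM in H501, H503 and H504 (log2 fold change -1.40, SE 0.16, edgeR adjusted p = 0.000783). Clec11a, coding for the secreted bone growth factor osteolectin, had 94.6, 83.9 and 119 CPM in HC1, HC2 and HC3 and 43, 44 and 29.4 CPM in H501, H503 and H504 (log2 fold change -1.68, SE 0.23, edgeR adjusted p = 0.00389). Both were lower in every 50 MPa library than in every control, as the choice required. Ror2, a receptor for Wnt5a in cartilage and bone, was also lower, at 24.7, 19.3 and 25.8 CPM in the controls against 13.9, 12.9 and 11.5 CPM at 50 MPa (log2 fold change -1.11, SE 0.19, edgeR adjusted p = 0.00998). On the higher side, Snx10, a sorting nexin needed for acid secretion by osteoclasts, had 20.7, 27.1 and 14.5 CPM in the controls against 37.8, 34.2 and 31.3 CPM at 50 MPa (log2 fold change 1.31, SE 0.19, edgeR adjusted p = 0.00411). Angpt1, the ligand of the endothelial receptor Tie2, had 10.6, 16.9 and 7.53 CPM in the controls against 20.9, 18.4 and 23.8 CPM at 50 MPa (log2 fold change 1.51, SE 0.23, edgeR adjusted p = 0.00608). Myef2, a transcriptional repressor, and Rhoq, a small GTPase of the Cdc42 family, rose by 1.54 and 1.27 on the log2 scale. Uchl5, a deubiquitinase of the proteasome, and Psma3, a proteasome core subunit, rose by 2.31 and 1.16. Their groups did not overlap, again by the choice of genes. For Snx10, Angpt1, Myef2, Rhoq, Uchl5 and Psma3 the stranded control HC2 lay closest to the 50 MPa libraries and HC3 farthest.

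Genes past the threshold at a mean of at least 1 CPM whose groups did not overlap were ranked by log2 fold change. Mitochondrial, predicted and unnamed genes and pseudogenes were left out. The largest increases were, in order, in Il1a, Ccl7, Mmd, Ifi207, Ccl3, Ch25h, Mgst1, Ccr1, Cd36 and Il11, of which the cytokines are described below. Cd36, a scavenger receptor that takes up fatty acids, had 12, 16.4 and 11.5 CPM in HC1, HC2 and HC3 and 54.4, 135 and 24.8 CPM in H501, H503 and H504 (log2 fold change 2.73, SE 0.76, edgeR adjusted p = 0.0492). Mmd, first described as a gene of maturing macrophages, had 2.17, 3.18 and 1.14 CPM in the controls against 6.54, 23.4 and 7.74 CPM at 50 MPa (log2 fold change 3.31, SE 0.59, edgeR adjusted p = 0.0117). In both, H503 was far above the other libraries, and the remaining 50 MPa libraries still lay above every control. H503 also held the most adipocyte marker RNA of the 6 libraries, with a sum of 381 CPM over the listed markers, and the part of this in the Cd36 and Mmd results was not tested. Without H503 the log2 fold change of Cd36 was 1.85 and no longer passed, while that of Mmd was 2.38 and passed; without HC3 neither passed (3.03 and 2.92). Mgst1, a microsomal glutathione transferase, showed the same order, with 3.26, 3.02 and 1.91 CPM in the controls against 9.18, 32 and 4.33 CPM at 50 MPa and a log2 fold change of 2.87. Ch25h, which makes 25-hydroxycholesterol, had 0.272, 0.636 and 0.381 CPM in the controls against 4.22, 2.57 and 5.26 CPM at 50 MPa (log2 fold change 3.11, SE 0.84, edgeR adjusted p = 0.0371). Ccr1, a receptor for CCL3 and CCL5, had 0.272, 3.34 and 1.33 CPM in the controls against 9.07, 7 and 11.8 CPM at 50 MPa, and the interferon-inducible Ifi207 had 0, 0.955 and 0.286 CPM in the controls against 3.8, 4.64 and 1.55 CPM at 50 MPa, with log2 fold changes of 2.78 and 3.30. The control levels of these genes rest on few reads, with 1, 4 and 4 counts in the controls against 40, 37 and 17 at 50 MPa for Ch25h, 1, 21 and 14 counts in the controls against 86, 101 and 38 at 50 MPa for Ccr1 and 0, 6 and 3 counts in the controls against 36, 67 and 5 at 50 MPa for Ifi207. The largest decreases by the same rule were, in order, in Olfr57, Serpina1a, Serpina1d, Hist2h2aa2, Scube2, Necab3, Epha8, Scn8a, Pkdcc and Clec11a, with Clec11a given above and the Serpina1 and histone genes below. Olfr57, an olfactory receptor gene, had 392, 15.6 and 77.4 CPM in HC1, HC2 and HC3 and 6.54, 12.5 and 2.17 CPM in H501, H503 and H504 (log2 fold change -4.11, SE 1.11, edgeR adjusted p = 0.0452). Its controls spread widely, with HC1 alone far above the rest. Scube2, coding for a secreted protein that helps release Hedgehog ligands, had 5.16, 7.16 and 8.38 CPM in the controls against 2.21, 2.98 and 0.928 CPM at 50 MPa (log2 fold change -2.02, SE 0.44, edgeR adjusted p = 0.0184). Pkdcc, a secreted kinase of growing cartilage, had 77.7, 46.1 and 88.8 CPM in the controls against 31.6, 30.6 and 20.7 CPM at 50 MPa (log2 fold change -1.71, SE 0.36, edgeR adjusted p = 0.0155). Necab3, a calcium-binding protein gene, Epha8, an ephrin receptor gene, and Scn8a, a sodium channel gene, were lower by log2 fold changes of -1.93, -1.90 and -1.82. In the left-out 50 MPa library H502, Epha8 stood at 13.5 CPM and Scn8a at 22.5 CPM, above all 3 controls.

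Injury cytokines and chemokines leaned towards higher values at 50 MPa. Of 35 listed genes 31 could be tested, 7 rose (3.51% of all tested genes did) and none fell, 20 had groups that did not overlap in the higher direction (8.19% of all tested genes) and 0 in the lower, and the median log2 fold change was 1.28. The promoters of the called chemokines Cxcl1 and Cxcl2 and of Il1a are shown because they differ in a motif of the NF-kB family, GGGNNNTTCC, searched on both strands. Each is the 250 bases before the start, 5′ to 3′ on the strand of the gene, from RefSeq on build GRCm38.p6, with matches in capitals: chr5:90890995-90891244 on the plus strand for Cxcl1, chr5:90903649-90903898 on the plus strand for Cxcl2 and chr2:129309973-129310222 on the minus strand for Il1a.
Cxcl1: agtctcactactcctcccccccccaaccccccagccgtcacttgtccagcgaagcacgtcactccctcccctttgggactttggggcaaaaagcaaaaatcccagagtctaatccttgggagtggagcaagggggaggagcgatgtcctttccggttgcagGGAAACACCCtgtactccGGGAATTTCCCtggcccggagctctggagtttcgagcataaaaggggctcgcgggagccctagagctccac
Cxcl2: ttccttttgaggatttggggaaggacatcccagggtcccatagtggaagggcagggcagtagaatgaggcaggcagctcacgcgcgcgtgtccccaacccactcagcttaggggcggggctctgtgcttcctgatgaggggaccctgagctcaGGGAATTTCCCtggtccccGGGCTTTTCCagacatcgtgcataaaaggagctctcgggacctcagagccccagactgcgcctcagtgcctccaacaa
Il1a: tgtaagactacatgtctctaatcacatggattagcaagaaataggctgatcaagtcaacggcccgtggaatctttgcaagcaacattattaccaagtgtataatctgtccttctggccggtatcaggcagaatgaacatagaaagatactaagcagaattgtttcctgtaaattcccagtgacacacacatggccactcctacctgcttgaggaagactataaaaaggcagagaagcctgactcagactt
Cxcl1 and Cxcl2 each held 3 matches at 2 separate places, 1 place being matched on both strands, and Il1a held none. Over the 300 bases from 250 before to 50 after the start, 11 of the 25 listed genes with a RefSeq entry held the motif (44%), against 1704 of 27025 genes overall (6.31%), and 2 of the 5 called genes with an entry held it. A match is a run of letters, and whether a factor was bound was not measured.

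Among the chemokines that draw monocytes, Ccl2 had 12, 14.3 and 8.29 CPM in HC1, HC2 and HC3 and 53.4, 53 and 50.8 CPM in H501, H503 and H504 (log2 fold change 2.54, SE 0.44, edgeR adjusted p = 0.00998). The 3 pressurised libraries were nearly alike and well above each control. Ccl7, which sits in the same chemokine family, had 1.36, 0.159 and 0.476 CPM in HC1, HC2 and HC3 and 5.06, 10.7 and 4.02 CPM in H501, H503 and H504 (log2 fold change 3.66, SE 0.84, edgeR adjusted p = 0.0195). Ccl3, made largely by myeloid cells, had 0.272, 2.23 and 0.191 CPM in HC1, HC2 and HC3 and 3.9, 7.35 and 6.81 CPM in H501, H503 and H504 (log2 fold change 3.29, SE 0.72, edgeR adjusted p = 0.0184). For both, every 50 MPa library was above every control, although single controls differed from each other several-fold at these low levels, which were 5, 1 and 5 counts in the controls against 48, 155 and 13 at 50 MPa for Ccl7 and 1, 14 and 2 counts in the controls against 37, 106 and 22 at 50 MPa for Ccl3. Of the chemokines that draw neutrophils, Cxcl1 had 4.89, 12.6 and 9.62 CPM in HC1, HC2 and HC3 and 40.0, 75.1 and 40.5 CPM in H501, H503 and H504 (log2 fold change 2.36, SE 0.51, edgeR adjusted p = 0.0184). Cxcl2, with the same receptor, had 3.53, 3.5 and 3.91 CPM in HC1, HC2 and HC3 and 11.3, 12.3 and 9.59 CPM in H501, H503 and H504 (log2 fold change 1.36, SE 0.39, edgeR adjusted p = 0.0442). The Cxcl1 values at 50 MPa lay well above the highest control, and the Cxcl2 controls were nearly alike. Among interleukins, Il1a, an alarmin released from damaged cells, had 0.272, 0.796 and 0 CPM in HC1, HC2 and HC3 and 3.38, 7.21 and 2.17 CPM in H501, H503 and H504 (log2 fold change 4.63, SE 1.31, edgeR adjusted p = 0.0435). These were 1, 5 and 0 counts in the controls against 32, 104 and 7 at 50 MPa, and Il1a overlaps a gene on the other strand, which the unstranded libraries cannot separate. Il11, a cytokine of the IL-6 family, had 1.9, 1.11 and 1.14 CPM in HC1, HC2 and HC3 and 3.06, 9.5 and 6.19 CPM in H501, H503 and H504 (log2 fold change 2.72, SE 0.73, edgeR adjusted p = 0.0362).

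Several close partners did not pass the threshold although their groups did not overlap. Il1b had 0.815, 0.636 and 0.953 CPM in HC1, HC2 and HC3 and 4.96, 7.42 and 8.05 CPM in H501, H503 and H504, or 3, 4 and 10 counts in the controls against 47, 107 and 26 at 50 MPa (log2 fold change 2.78, SE 0.88, edgeR adjusted p = 0.0662), Ccl5 had 0.272, 1.43 and 1.43 CPM in the controls against 11.4, 11.9 and 3.09 CPM at 50 MPa (log2 fold change 2.83, SE 0.87, edgeR adjusted p = 0.0648), and Ptgs2, the inducible cyclooxygenase, had 35.9, 45 and 38.7 CPM in the controls against 67.9, 91.2 and 143 CPM at 50 MPa (log2 fold change 1.19, SE 0.48, edgeR adjusted p = 0.138). Tnfsf11, which codes for the osteoclast factor RANKL, had 4.08, 3.82 and 10.1 CPM in the controls against 24.5, 11.7 and 35.6 CPM at 50 MPa (log2 fold change 1.43, SE 0.45, edgeR adjusted p = 0.062), and the receptor gene Tlr4 had a log2 fold change of 1.04 (edgeR adjusted p = 0.0515). Tnfrsf11b, coding for osteoprotegerin, the decoy receptor of RANKL, had a negative log2 fold change (-0.88, edgeR adjusted p = 0.215) and overlapping groups. Il6, Csf2, Csf3 and Ccl6 were too low to be tested, and Il6 reached 6.38 CPM in H503 against at most 0.619 CPM in the other 5 libraries. The left-out control HC4, which was not pressurised, was higher than all 3 controls for 26 of the 31 tested genes and higher than all 3 pressurised libraries for 18, with 153 CPM of Ccl2 and 77.3 CPM of Cxcl1. The share of all tested genes that lay as high in HC4 was not computed. The left-out library H502, which was pressurised, had 12.7 CPM of Ccl2 and 13 CPM of Cxcl1, within or just above the range of the controls. With both put back, the median of the list was 0.46 and no member passed; without HC3 it was 1.59, again with no member past the threshold.

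**Figure D2:**
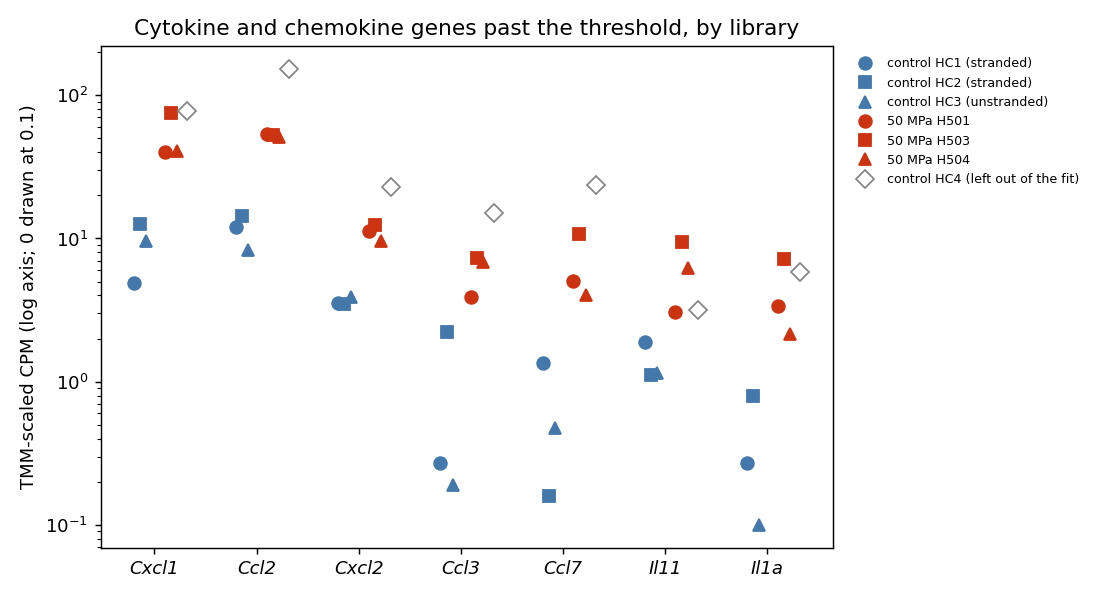
CPM of the 7 called cytokine and chemokine genes in each hip cap library on a log axis, with 0 drawn at 0.1, controls in blue, 50 MPa in red and the left-out control HC4 as an open grey diamond. All red points lie above all blue points for each gene, from 50.8 to 53.4 CPM against 8.29 to 14.3 CPM for Ccl2, and HC4 lies at 153 CPM for that gene.

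Genes of the cartilage fibril had lower values in pressurised caps, without any of the 7 passing the threshold. The list had a median log2 fold change of -1.27, all 7 values were negative, and 6 had groups that did not overlap in the lower direction (7.56% of all tested genes). Col2a1, the main fibril collagen, with the values given above, had log2 fold change -1.25, SE 0.53, edgeR adjusted p = 0.156, and its highest pressurised library lay below its lowest control. Col11a1, which nucleates the fibril, had 6736, 5333 and 5317 CPM in HC1, HC2 and HC3 and 2864, 3635 and 2469.8 CPM in H501, H503 and H504 (log2 fold change -0.87, SE 0.41, edgeR adjusted p = 0.205). Col9a1, whose product coats the fibril surface, had 1695, 1451 and 1648 CPM in the controls against 706, 978 and 526 CPM at 50 MPa, with a log2 fold change of -1.27. Col9a2, Col9a3, Col11a2 and Col27a1 had log2 fold changes of -1.50, -1.46, -1.59 and -1.17 with edgeR adjusted p of 0.0555, 0.0726, 0.0537 and 0.0553. Only Col11a2 had groups that overlapped, through HC2.

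Of 30 tested proteoglycans and other matrix proteins, 3 fell, 1 rose, 12 did not overlap in the lower direction (7.56% of all tested genes did, and 1.98% fell) and 0 in the higher. The median was -0.79, and it was -1.34 without HC3 and -0.52 in the 6 libraries alone. Comp, a pentameric matrix protein that binds the collagen fibril, had 3640.3, 2383 and 4384 CPM in HC1, HC2 and HC3 and 2062, 2058 and 1545 CPM in H501, H503 and H504 (log2 fold change -1.35, SE 0.38, edgeR adjusted p = 0.0429). Chadl, a leucine-rich protein that limits collagen fibril assembly, had 231, 142 and 349.7 CPM in HC1, HC2 and HC3 and 132, 129 and 96.9 CPM in H501, H503 and H504 (log2 fold change -1.57, SE 0.34, edgeR adjusted p = 0.0183). Vit, the gene of vitrin, had 146, 135 and 165 CPM in the controls against 87.4, 74.7 and 42.7 CPM at 50 MPa (log2 fold change -1.22, SE 0.32, edgeR adjusted p = 0.035). All pressurised values of these genes were below the controls of the same gene, with H504 the lowest in each. Acan, the core protein of aggrecan, had 10403, 6417 and 9560.4 CPM in HC1, HC2 and HC3 and 4331, 3734 and 6066 CPM in H501, H503 and H504 (log2 fold change -1.18, SE 0.46, edgeR adjusted p = 0.126), and Hapln1, the link protein that ties aggrecan to hyaluronan, had 1891, 2337 and 1547 CPM in the controls against 935, 986 and 1118 CPM at 50 MPa (log2 fold change -0.57, SE 0.30, edgeR adjusted p = 0.269). Neither Acan nor Hapln1 passed, though their groups did not overlap, and the same was true of Matn3, a matrilin (log2 fold change -1.33). The 1 member that rose, Aspn, coding for asporin, had 2.17, 2.23 and 0.667 CPM in the controls against 3.06, 5.27 and 0.619 CPM at 50 MPa (log2 fold change 2.11, SE 0.54, edgeR adjusted p = 0.0332). The groups overlapped, H504 being the lowest of all 6 with 2 counts, and HC3 was the lowest control. The left-out control HC4 had the lowest values of all 8 hip cap libraries for Acan, Comp and Col2a1, at 945, 593 and 6293 CPM.

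**Figure D3:**
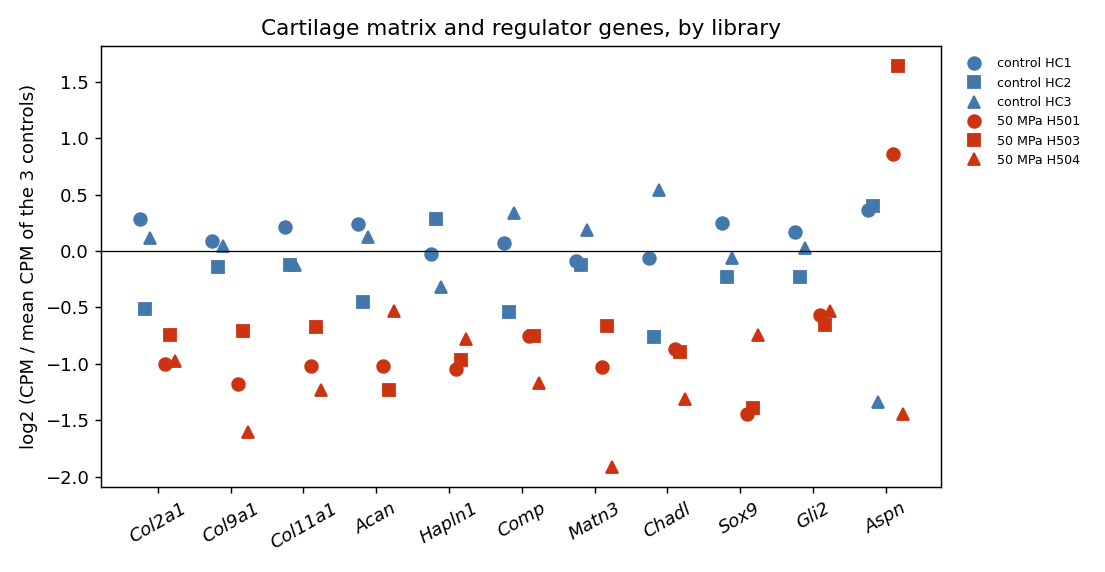
Expression of 11 cartilage genes in each library as log2 of the CPM over the mean CPM of the 3 controls (vertical axis), with controls in blue and 50 MPa in red. Red points lie below blue points for every gene except Aspn, whose groups overlap.

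Of 22 genes for type VI collagen, laminins and their neighbours, 4 fell and none rose (1.98% and 3.51% of all tested genes did). Groups did not overlap for 7 in the higher direction and 3 in the lower (8.19% and 7.56% of all tested genes). The median was -0.01, and it moved to 0.25 when library sizes alone set the scale and to -0.28 without HC3. Hspg2, coding for perlecan, the heparan sulphate proteoglycan around the chondrocyte, had 2624, 1676 and 2544 CPM in HC1, HC2 and HC3 and 1272, 1201 and 1442 CPM in H501, H503 and H504 (log2 fold change -1.08, SE 0.25, edgeR adjusted p = 0.0195). Col6a2, a chain of type VI collagen, had 1041, 513 and 1137 CPM in HC1, HC2 and HC3 and 627, 613 and 554 CPM in H501, H503 and H504 (log2 fold change -1.07, SE 0.24, edgeR adjusted p = 0.0188), and its groups overlapped through HC2. Lama2 and Lamb2, laminin chains, had log2 fold changes of -1.19 and -0.96, Lama2 without overlap at 18.5, 19.6 and 20.0 CPM in the controls against 8.12, 11.2 and 6.19 CPM at 50 MPa. Among 30 genes of glycosaminoglycan synthesis 2 fell and none rose (median -0.39, and -0.17 with library sizes alone): Ext2, which extends heparan sulphate chains, with 88.3, 79.4 and 98.3 CPM in the controls against 62.9, 53.7 and 67.8 CPM at 50 MPa (log2 fold change -0.72, SE 0.16, edgeR adjusted p = 0.0183), and Chpf2, which polymerises chondroitin, with a log2 fold change of -0.79 and overlapping groups.

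The transcription factors and signals that set the chondrocyte programme leaned towards lower values. Of 25 tested regulators 2 fell and none rose, 13 did not overlap in the lower direction and 0 in the higher, against 1.98% lower and 7.56% not overlapping in the lower direction over all tested genes. The median was -0.51, and it was -0.29 with GC trends removed and -0.28 with library sizes alone. Sox9, the master regulator of cartilage genes, had 958, 690.4 and 775 CPM in HC1, HC2 and HC3 and 297, 308 and 481 CPM in H501, H503 and H504 (log2 fold change -1.23, SE 0.31, edgeR adjusted p = 0.028). Gli2, an effector of Hedgehog signalling, had 90.0, 67.9 and 81.5 CPM in HC1, HC2 and HC3 and 54, 50.6 and 55.1 CPM in H501, H503 and H504 (log2 fold change -0.76, SE 0.18, edgeR adjusted p = 0.0235). In both genes every pressurised library was below every control. Pth1r, the receptor of parathyroid hormone-related protein, had 851, 536 and 586 CPM in the controls against 334, 266 and 472 CPM at 50 MPa (log2 fold change -1.11, SE 0.36, edgeR adjusted p = 0.0713) and did not pass. Of 11 genes of chondrocyte hypertrophy none passed (median 0.01).

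Of 46 growth factors and antagonists 2 rose and 3 fell (3.51% and 1.98% of all tested genes did), with a median of 0.01. Igf1, an anabolic factor for cartilage, had 2.72, 6.05 and 1.33 CPM in the controls against 8.33, 15.7 and 5.26 CPM at 50 MPa (log2 fold change 2.76, SE 0.61, edgeR adjusted p = 0.0195), with HC2 above H504. The receptors of transforming growth factor beta parted, Tgfbr1 with a log2 fold change of 1.17 and Tgfbr2 with -0.59. Sfrp5, a secreted Wnt antagonist, had 196, 134 and 194 CPM in HC1, HC2 and HC3 and 64.9, 65.9 and 93.8 CPM in H501, H503 and H504 (log2 fold change -1.50, SE 0.42, edgeR adjusted p = 0.0444). Gdf10, a member of the bone morphogenetic protein family, had 127, 92.1 and 136 CPM in the controls against 73.2, 63.2 and 38.7 CPM at 50 MPa (log2 fold change -1.36, SE 0.39, edgeR adjusted p = 0.0491). Both antagonist and ligand were lower in all 3 pressurised libraries.

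Of 36 matrix proteases and inhibitors 2 rose and 2 fell (3.51% and 1.98% of all tested genes did), and the median was 0.25. Groups did not overlap for 10 in the higher direction and 5 in the lower (8.19% and 7.56% of all tested genes). Mmp12, the macrophage elastase, had 10.6, 30.1 and 16 CPM in HC1, HC2 and HC3 and 88, 181 and 32.5 CPM in H501, H503 and H504 (log2 fold change 2.65, SE 0.62, edgeR adjusted p = 0.0258). Adam10, a sheddase of cell surface proteins, had 27.2, 37.6 and 25.1 CPM in the controls against 47.3, 52.2 and 42.7 CPM at 50 MPa (log2 fold change 0.94, SE 0.24, edgeR adjusted p = 0.0289). H503 was highest for both. The aggrecanase genes Adamts4 and Adamts5 had log2 fold changes of 1.30 and 0.93 with edgeR adjusted p of 0.0972 and 0.0608, and the gelatinase gene Mmp9 had 196, 289 and 162 CPM in the controls against 666, 301 and 912 CPM at 50 MPa (log2 fold change 1.59, SE 0.68, edgeR adjusted p = 0.172). The 2 that fell were Serpina1a and Serpina1d, coding for alpha-1-antitrypsin, an inhibitor of neutrophil elastase. Serpina1a had 88.6, 55.9 and 135 CPM in HC1, HC2 and HC3 and 30.9, 21.8 and 21 CPM in H501, H503 and H504 (log2 fold change -2.76, SE 0.74, edgeR adjusted p = 0.0397), and Serpina1d had 107, 85 and 154 CPM in the controls against 36.5, 34.5 and 27.2 CPM at 50 MPa (log2 fold change -2.36, SE 0.64, edgeR adjusted p = 0.0368). Their sequences are nearly identical to other Serpina1 copies, so reads can be split between them, and the copies Serpina1b, Serpina1c and Serpina1e had log2 fold changes of -1.59, -1.97 and -0.75, none past the threshold.

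Among 25 antioxidant and metallothionein genes 3 rose and none fell (3.51% and 1.98% of all tested genes did). Groups did not overlap in the higher direction for 12 (8.19% of all tested genes), and the median was 0.58. Prdx6, a peroxiredoxin, had 32.1, 40.3 and 37.7 CPM in HC1, HC2 and HC3 and 80.6, 97.7 and 63.8 CPM in H501, H503 and H504 (log2 fold change 1.11, SE 0.23, edgeR adjusted p = 0.0146). Sod2, the mitochondrial superoxide dismutase, had 41.3, 61.1 and 55.8 CPM in HC1, HC2 and HC3 and 101, 109 and 82.6 CPM in H501, H503 and H504 (log2 fold change 0.95, SE 0.21, edgeR adjusted p = 0.0191). Mt2, a metallothionein, had 11.1, 19.3 and 17.9 CPM in the controls against 59.9, 194 and 26 CPM at 50 MPa (log2 fold change 2.42, SE 0.65, edgeR adjusted p = 0.0423), with H504 just above the controls, and its neighbour Mt1 had a log2 fold change of 1.59 (edgeR adjusted p = 0.0796). Among 25 interferon response and antigen presentation genes 2 rose and none fell, with 11 not overlapping in the higher direction and a median of 0.40. B2m, the light chain of class I molecules, had 17.9, 87.5 and 12.5 CPM in the controls against 89, 109 and 93.5 CPM at 50 MPa (log2 fold change 2.54, SE 0.65, edgeR adjusted p = 0.0338), with HC2 next to the pressurised libraries. Ifitm3, an antiviral membrane protein gene, had 6.52, 12.3 and 7.24 CPM in the controls against 40.8, 37.2 and 38.1 CPM at 50 MPa (log2 fold change 2.26, SE 0.63, edgeR adjusted p = 0.0469).

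Of 24 heat shock genes 4 rose and none fell (3.51% and 1.98% of all tested genes did). The median was 0.19, and it turned to -0.11 without HC3 and to -0.12 with all 24 libraries. Dnaja1, a co-chaperone of HSP70, had 19, 51.6 and 26.9 CPM in HC1, HC2 and HC3 and 69.9, 74.5 and 68.4 CPM in H501, H503 and H504 (log2 fold change 1.39, SE 0.29, edgeR adjusted p = 0.0151). Hspa4l had 8.15, 16.9 and 10.1 CPM in the controls against 19, 29.7 and 26.6 CPM at 50 MPa (log2 fold change 1.27, SE 0.31, edgeR adjusted p = 0.0258), without overlap, while Dnaja2 and the heat shock factor gene Hsf2 had log2 fold changes of 1.16 and 0.92 with overlapping groups. Of 52 nuclear transport genes 9 rose and 2 fell, 21.2% of the list against 5.50% of all tested genes, with 8 not overlapping in the higher direction (8.19% of all tested genes) and a median of 0.19. The importin gene Kpna3 had 17.9, 18.8 and 9.62 CPM in the controls against 20.7, 24.3 and 22 CPM at 50 MPa (log2 fold change 1.17, SE 0.21, edgeR adjusted p = 0.00998), the nucleoporin gene Nup153 had 34, 51.4 and 30.0 CPM in the controls against 51.5, 53.7 and 58.2 CPM at 50 MPa (log2 fold change 0.88, SE 0.17, edgeR adjusted p = 0.0132), and the main exportin gene Xpo1 had 36.4, 105 and 34.5 CPM in the controls against 78.4, 98.1 and 82.6 CPM at 50 MPa (log2 fold change 1.34, SE 0.29, edgeR adjusted p = 0.0176). The Xpo1 groups overlapped, HC2 being the highest of the 6 libraries. Nup160, Tnpo1, Ipo7, Kpna4, Ranbp2 and Xpo7 also rose, by 0.63 to 1.07 on the log2 scale, and Xpo5 and Ipo4 fell by 0.79 and 0.72. With GC trends removed none of the called nuclear transport genes passed, though the median of the list was 0.21. Their edgeR adjusted p then ran from 0.0547 for Xpo1 to 0.309 for Ranbp2. Smaller counts came from endoplasmic reticulum stress (1 of 27 rose: Asns, the asparagine synthetase of the ATF4 response, log2 fold change 1.04), secretory vesicle transport (1 of 38 rose: Trappc2, 1.67), p53 targets and cell death (1 of 25 rose: Trp53inp1, 1.34), glycolysis and hypoxia (1 of 28 rose and 1 fell: Higd1a, 1.53, and Pfkm, -0.76), and cholesterol synthesis and uptake (2 of 24 fell: Apoe, -1.24, and Scap, -0.98). In these lists 2.63% to 8.33% of the members were called in either direction, against 5.50% of all tested genes. None of 28 cell cycle genes passed. Of 84 cytosolic ribosomal protein genes 3 fell (Rpl19, Rpsa and Rps4l) and 1 rose (Rps27l), with a median of -0.03, and of 65 replication-dependent histone genes 2 fell (median -0.92, and -1.78 without HC3 and -0.20 in the 6 libraries alone), Hist2h2aa2 by 2.05 and Hist4h4 by 1.53 on the log2 scale, in gene families whose near-identical copies share reads. Other small medians moved with the libraries used. With all 24 libraries those of the proteases, the antioxidant genes, the interferon genes and nuclear transport were -0.07, -0.15, -0.05 and -0.01. Without H503 those of the proteases and the antioxidant genes were 0.10 and 0.36, and without H504 those of the growth factors, the hypertrophy genes and the ribosomal proteins were -0.24, -0.18 and -0.43.

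Transcripts of the mitochondrial genome were called higher for 6 of 13 protein genes (3.51% of all tested genes were), with none lower and a median log2 fold change of 3.94. The shares of all counts that fell on this genome were 0.267%, 2.05% and 0.115% in HC1, HC2 and HC3 and 0.961%, 2.54% and 1.10% in H501, H503 and H504. Control HC2 thus lay between the pressurised libraries, and HC1 and HC3 lay below all of them. The left-out control HC4 had 1.16%, above H501 and H504, and the left-out pressurised library H502 had 0.353%, within the range of the controls. The summed CPM of the 13 genes was 9304 in HC4, above every 50 MPa library. The cytochrome c oxidase subunit gene mt-Co2 had 78.8, 114 and 45.7 CPM in HC1, HC2 and HC3 and 359, 926 and 208 CPM in H501, H503 and H504 (log2 fold change 3.47, SE 0.55, edgeR adjusted p = 0.00798). The genes mt-Co3 and mt-Atp6, of the same oxidase and of ATP synthase, had 8.7, 151 and 28.8 CPM in the controls against 346, 857 and 345 CPM at 50 MPa and 9.24, 200.5 and 15.6 CPM in the controls against 220.0, 695 and 206 CPM at 50 MPa, and log2 fold changes of 3.94 and 4.26. These 3 were the only members whose groups did not overlap. The genes mt-Co1, mt-Nd3 and mt-Nd5 were also called, with HC2 inside the range of the pressurised libraries, as in mt-Nd1 (29.1, 528 and 11 CPM in the controls against 202, 555 and 571 CPM at 50 MPa; log2 fold change 4.28, SE 1.24, edgeR adjusted p = 0.0543), which did not pass. In the 6 libraries alone the median of the 13 was 1.41, and without HC3 it was 1.89. Neither of the 2 mitochondrial ribosomal RNA genes passed. Their summed CPM was highest in the control HC2, at 32272 against 10738 to 19002 at 50 MPa, and their median was 2.57, falling to 0.26 both in the 6 libraries alone and without HC3. Of the nuclear genes of the respiratory chain, 3 of 37 genes of complex I rose (Ndufc1, Ndufc2 and Ndufb1-ps, median of the list 0.17) and 2 of 41 of the other complexes (Sdhd and Uqcrb, median 0.26). Without HC3 the second median was -0.07 and the first within 0.01 of 0, and with all 24 libraries both were negative, at -0.18 for complex I and -0.28 for the others.

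**Figure D4:**
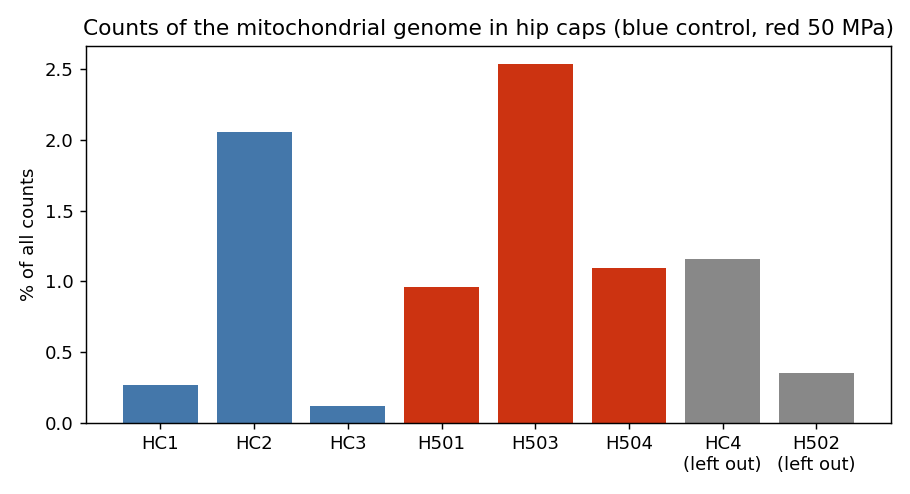
Share of all counts on the mitochondrial genome in each hip cap library, in percent, with controls in blue, 50 MPa in red and the 2 left-out libraries in grey. HC2, at 2.05%, lies between H504 at 1.10% and H503 at 2.54%.

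Of 32 tested mechanosensitive and calcium channel genes 1 rose and 3 fell (3.51% and 1.98% of all tested genes did). The median was -0.27, and -0.08 with GC trends removed. Gja1, coding for the gap junction protein connexin 43, had 95.9, 111 and 94.8 CPM in HC1, HC2 and HC3 and 207, 221 and 208 CPM in H501, H503 and H504 (log2 fold change 1.16, SE 0.26, edgeR adjusted p = 0.0185), and the pressurised libraries were about alike. Besides Scn8a, the genes that fell were Itpr3, a calcium release channel of the endoplasmic reticulum, with 208, 109 and 236 CPM in the controls against 133, 108 and 95.9 CPM at 50 MPa (log2 fold change -1.16, SE 0.26, edgeR adjusted p = 0.0183), and Pkd1, coding for polycystin-1, with a log2 fold change of -0.65. Among 31 early response and YAP target genes 1 rose and 1 fell (median 0.26, and 0.05 without H504). Groups did not overlap in the higher direction for 8 (8.19% of all tested genes). Ier3, an immediate early gene, had 14.1, 11.9 and 10.8 CPM in the controls against 21, 33.1 and 44.9 CPM at 50 MPa (log2 fold change 1.53, SE 0.42, edgeR adjusted p = 0.0394), and Myc had 54.4, 34.7 and 53.5 CPM in the controls against 31.5, 26.8 and 23.5 CPM at 50 MPa (log2 fold change -1.08, SE 0.28, edgeR adjusted p = 0.0306).

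The next lists were taken from the study, which chose them on these samples, so their counts are not independent evidence of a direction. Of its 12 osteoarthritis risk genes 2 rose and 5 fell. The 2 that rose were Il11 and Sbno1, a regulator of transcription with a log2 fold change of 0.60 and overlapping groups. Among those that fell, Mn1 had 22.3, 14.3 and 29.4 CPM in the controls against 16.2, 11.9 and 13.6 CPM at 50 MPa (log2 fold change -1.05, SE 0.26, edgeR adjusted p = 0.0272), with overlapping groups, and Chadl and Pfkm are given above. Apoe, a lipid carrier, had 413, 227 and 411 CPM in HC1, HC2 and HC3 and 148, 205 and 164 CPM in H501, H503 and H504 (log2 fold change -1.24, SE 0.26, edgeR adjusted p = 0.0151). Of 10 genes that the study discusses for osteoarthritis, 3 fell and none rose (Comp, Col6a2 and Sox9). Of 26 tested genes that it tabulates, 6 rose and 6 fell, among them Mlip, with 1.9, 1.91 and 0.286 CPM in the controls against 2.11, 1.87 and 4.02 CPM at 50 MPa or 7, 12 and 3 counts in the controls against 20, 27 and 13 at 50 MPa, and Caskin1, with 5.98, 2.71 and 10.3 CPM in the controls against 2, 4.02 and 2.48 CPM at 50 MPa, both with overlapping groups.

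Markers of the other cells that a hip cap could hold were examined as well. Over all tested genes 3.51% rose, 1.98% fell and 8.19% did not overlap in the higher direction. Of 13 tested osteoclast markers 1 rose, Car2, the carbonic anhydrase of acid secretion, with 0.272, 0.477 and 0.476 CPM in the controls against 3.06, 1.66 and 3.4 CPM at 50 MPa (log2 fold change 2.66, SE 0.76, edgeR adjusted p = 0.044; 1, 3 and 5 counts in the controls against 29, 24 and 11 at 50 MPa), and 6 did not overlap in the higher direction (median 1.30). The summed CPM of the list ran from 499 to 684 in the controls and from 722 to 1938 at 50 MPa, and stood at 5038 in HC4. The defining genes Acp5 and Ctsk had 96.7, 142 and 113 CPM in the controls against 418, 135 and 587 CPM at 50 MPa and 28.8, 81.5 and 52 CPM in the controls against 208, 93.7 and 189 CPM at 50 MPa. Without HC3 the median of this list was -0.02. Of 13 tested macrophage markers 2 rose, Cd14, a receptor for bacterial lipopolysaccharide, with 4.08, 4.3 and 4.19 CPM in the controls against 9.91, 19.7 and 12.4 CPM at 50 MPa (log2 fold change 1.77, SE 0.38, edgeR adjusted p = 0.0181), and Cd68, a lysosomal protein gene, with 9.78, 12.1 and 6.1 CPM in the controls against 23.1, 21.1 and 29.1 CPM at 50 MPa (log2 fold change 1.76, SE 0.49, edgeR adjusted p = 0.0443). Of the 13, 7 did not overlap in the higher direction (median 1.00), and 5 had negative log2 fold changes, down to -2.40. Every 50 MPa library lay above HC3 for 7 of the 13 and below it for 5, against 24.8% and 29.5% of all tested genes. The summed CPM of the macrophage list was 120.4, 138 and 345 in HC1, HC2 and HC3 and 351, 336 and 202 in H501, H503 and H504, so the groups overlapped. The part of these cells in the cytokine, Mmp12 and Snx10 results was not tested. Of 12 osteoblast and osteocyte markers 1 fell, Sp7, the osteoblast transcription factor osterix (80.7, 70.0 and 101 CPM in the controls against 51.4, 45 and 59.7 CPM at 50 MPa; log2 fold change -1.08, SE 0.29, edgeR adjusted p = 0.0341). Of 10 neutrophil markers 1 fell, Ltf, coding for lactoferrin, with 3.26, 0.636 and 16.7 CPM in the controls against 0.316, 0.832 and 0 CPM at 50 MPa or 12, 4 and 175 counts in the controls against 3, 12 and 0 at 50 MPa, where HC3 alone was high. Of 10 skeletal muscle markers 1 rose, Ttn (4.89, 8.59 and 9.91 CPM in the controls against 22.7, 35.1 and 34.7 CPM at 50 MPa; log2 fold change 1.95, SE 0.47, edgeR adjusted p = 0.0268). Of these 10 markers 3 had negative log2 fold changes, and the median of 1.41 was 0.15 without H503. No endothelial, erythroid, fibroblast, lymphocyte or adipocyte marker passed, although 6 of 10 endothelial markers did not overlap in the higher direction. Adipocyte markers summed to 381 CPM in H503 against 3.66 to 54.6 CPM in the other 5 libraries.

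Hip caps at 5 MPa were compared with the same 3 controls, so the values are set side by side and share the error of HC1, HC2 and HC3, and their libraries are all of the other sequencing run. There 0.0235% of the genes passed. The median of the cytokine list was 1.10 at 5 MPa and 1.28 at 50 MPa, that of the fibril collagens -0.80 and -1.27, and that of the mitochondrially encoded proteins 3.74 and 3.94. On the log2 scale Ccl2 changed by a fitted 1.86 at 5 MPa against 2.54 at 50 MPa, Il1a by 2.50 and 4.63, Sox9 -0.53 and -1.23, and Comp -0.75 and -1.35. Serpina1a and Serpina1d had positive values at 5 MPa, 1.16 and 1.99, against -2.76 and -2.36 at 50 MPa.

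Embryonic metatarsals, a growth plate cartilage, have controls of their own. At 50 MPa 0.00% of the genes passed there, and the difference of the 50 MPa response between the tissues passed for 94 genes (0.442% of those tested, 56 with a more positive and 38 with a more negative value in hip caps). In 93 of the 94 the hip cap change was the larger in size, and 91 were also among the 1170 genes called in hip caps. Islr had a log2 fold change of -1.40 in hip caps and 0.01 in metatarsals, and the difference was -1.41 (edgeR adjusted p = 0.00374). Clec11a had -1.68 and 0.29, with a difference of -1.98 (edgeR adjusted p = 0.00374). Mmd, Myef2, Snx10, Rhoq, Gja1, Ttn, mt-Co2, Nup153 and Nup160 had a more positive change in hip caps, and Scn8a, Ror2, Col6a2, Ext2, Rpl19 and Rpsa a more negative one. Tnfsf11, at 1.43 in hip caps and -1.08 in metatarsals, and Thy1, a fibroblast surface gene, at 0.98 and -0.49, passed for the difference but not within hip caps. For Ccl2 the metatarsal value was 0.52 and the difference 2.02 did not pass (edgeR adjusted p = 0.0512), and the same held for Sox9, with -0.10 in metatarsals and a difference of -1.13 (edgeR adjusted p = 0.0941). No cytokine other than Tnfsf11 and no fibril collagen passed this test, though the list medians in metatarsals were 0.03 and 0.01. With HC4 and H502 put back, no gene passed for the difference (3128 at an unadjusted p below 0.05 by edgeR), and without HC3 there were 3. Leaving out HC1, HC2, H503 or H504 gave 196, 1749, 11 and 630.

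**Figure D5:**
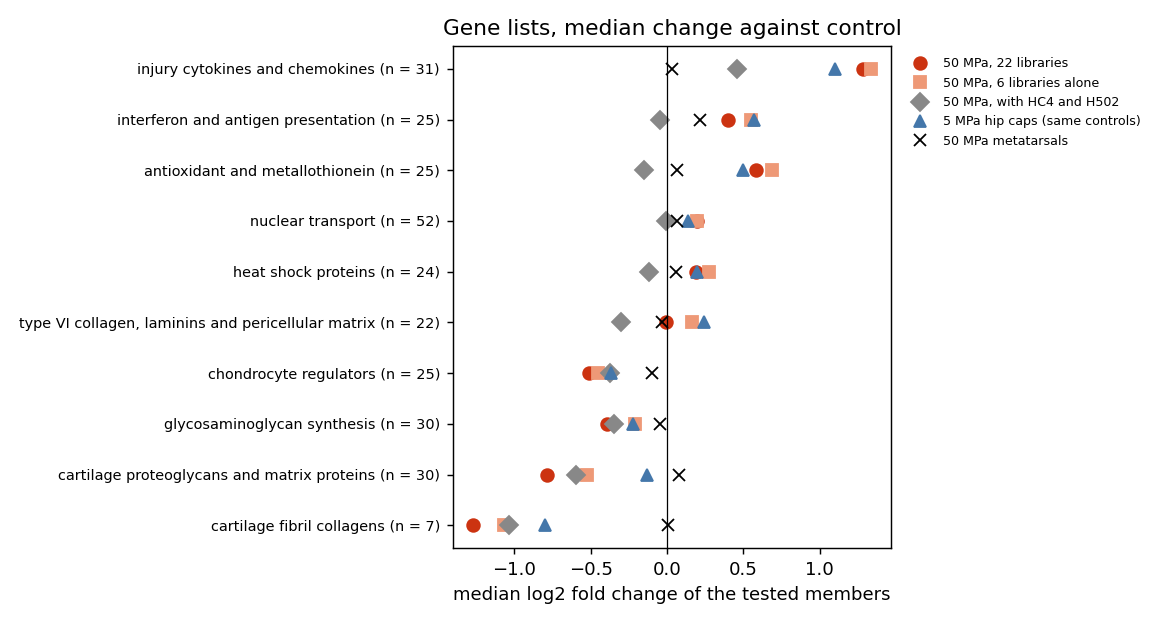
Median log2 fold change of the tested members (horizontal axis) of gene lists (vertical axis, with the number tested) at 50 MPa in hip caps under several fits, at 5 MPa in hip caps against the same controls, and at 50 MPa in metatarsals. The cytokine list lies at 1.28 and the fibril collagens at -1.27 in hip caps, against 0.03 and 0.01 in metatarsals.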

How the data were processed

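RNA from each pair of hip caps, of low integrity, was depleted of ribosomal RNA and sequenced as paired ends. Per the labels and the methods of the study, reads were trimmed with Trim Galore 0.6.5 and quantified with kallisto on GRCm39, and tximport summed transcripts to genes. The version of kallisto and the annotation release are not given in the sources used here. The authors deposited these estimated counts for 52178 genes, which were rounded to whole numbers, and 0 columns belonged to samples outside the series. The depth of each library is given as a range in the text, and at these depths genes below about 10 counts are known only to within counting error, and the counts of several low genes are given beside their CPM.

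The libraries of the study's statistics (22, without HC4 and H502) were fitted together in edgeR 4.0.16 (R 4.3.3, limma 3.58.1) with group, sequencing run and library type as terms, after filterByExpr (21283 genes) and TMM scaling, by the robust quasi-likelihood test, two-sided, with Benjamini-Hochberg adjustment over all genes tested. Hip caps at 50 MPa were compared with hip caps at 0 MPa, and an interaction contrast compared that change with the one in metatarsals. The sequencing run came from a colour code in the clustering picture of the study, and library type from the labels, whereas the methods describe a strand-specific kit, so both terms are uncertain. All 6 libraries compared are of run 1. The main fit was tested on simulated counts that held no run or library type effect, so its reliance on HC3 was not tested there.

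CPM in the text are TMM-scaled. The genes named are members of fixed lists past the threshold and genes picked by rank. The ranked genes are the 10 highest and 10 lowest log2 fold changes and the 10 lowest adjusted p-values. All were ranked among genes past the threshold whose groups did not overlap at a mean of at least 1 CPM. Predicted or unnamed genes, pseudogenes and mitochondrial genes were left out of the ranking. List members below the threshold, Mob1b and Thy1 were chosen after their values were seen. The members and the lists were chosen with earlier results of these data known.

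Mice differ between groups, so replicate numbers do not pair the samples by mouse. Same-numbered libraries did not deviate together (correlations of their deviations from -0.29 to 0.17). Run and library type were not taken out first, and the unstranded HC3 and M504, of different number, correlated at 0.47. A shared effect of replicate number could thus be hidden. Each hip cap library is 1 mouse, whereas each metatarsal library pooled several embryonic bones. The p-values rest on the spread between libraries of a group over both tissues, together with handling, not on that of hip cap mice alone. The dispersion was 0.14 in the 22 libraries and 0.23 in the 10 hip caps. Alternatives were other scalings, filters, batch terms and sets of libraries, DESeq2 1.42.0, removal of GC trends, removal of genes that overlap on the other strand, a replicate block and leaving out each library. Promoter sequences came from RefSeq on GRCm38.p6 and were matched by symbol, and no coordinate was moved between builds. A gene of the lists is counted but not reported here by name.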

Additional observations from a re-analysis of the deposited data

Results flagged for a closer look

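The difference of the 50 MPa response between tissues, hip cap minus metatarsal on the log2 scale, passed the edgeR interaction test for these named genes. It was positive for Mmd (3.11), mt-Co2 (2.99), Ttn (2.76), Tnfsf11 (2.52), Thy1 (1.47), Snx10 (1.31), Myef2 (1.30), Rhoq (1.29), Gja1 (1.28), Nup160 (0.95) and Nup153 (0.87). It was negative for Clec11a (-1.98), Scn8a (-1.80), Rpl19 (-1.43), Islr (-1.41), Rpsa (-1.38), Col6a2 (-1.24), Ror2 (-1.04) and Ext2 (-0.83). None of these passed with HC4 and H502 put back, when the interaction test called 0 genes (3128 at an unadjusted p below 0.05 by edgeR).

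The control HC4, which the fit does not hold and which was not pressurised, was high for many members of the lists below. Of 31 tested cytokine and chemokine genes, 26 were higher in HC4 than in HC1, HC2 and HC3 and 18 were higher than in H501, H503 and H504. Of 13 tested osteoclast markers, 13 were higher than in the 3 controls and 12 higher than in the 3 pressurised libraries. Of 13 tested macrophage markers, the counts were 10 and 8. The share of all tested genes that lay as high in HC4 was not computed, so these counts have no reference. HC4 is a stranded library of the other sequencing run, its CPM were scaled in the fit of all 24 libraries, and its place among the controls was not tested.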

How the results depend on the processing

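Of the 1170 genes called in hip caps at 50 MPa (748 higher, 422 lower), the total was 2 (2 and 0) with all 24 libraries, 58 (46 and 12) with library sizes alone, 563 (365 and 198) with no filter, 554 (349 and 205) with library type as the only batch term, 195 (144 and 51) with GC trends removed, 668 (493 and 175) with an absolute log2 fold change of at least 1, and 2483 (1560 and 923) by DESeq2. It was 0 (0 and 0) in the 6 libraries alone, in the 6 with library type (1009 genes at an unadjusted p below 0.05 by edgeR), in the 10 hip caps with library type and in the unstranded hip caps alone (1610 genes). A minimum of 10 counts in each library gave 749 lower genes of 1673. No batch terms gave 1039, of which 378 were shared with the 1170. A replicate block, though the numbers do not pair the mice, gave 1532 (1015 higher, 517 lower). Leaving out 1 library gave 1 to 2596 genes (0 to 1621 higher, 1 to 975 lower), the lowest without HC3 and the highest without HC2.

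The 94 genes whose response differed between tissues (56 and 38) became 0 (0 and 0) with all 24 libraries, 9 (7 and 2) with no batch terms, 7 (5 and 2) with run alone, 31 (18 and 13) with library type alone, and 3 to 1749 (1 to 1090 higher, 2 to 659 lower) without 1 library, the lowest without HC3.

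Among the 137 genes followed across settings, the 109 listed genes past the threshold and others named in the text, 1855 of 3091 alternative values kept direction and side of the threshold, 1158 kept direction only and lost the threshold, and 72 gained it. Of the 109, 24 held with GC trends removed, 58 with no batch terms, 1 with all 24 libraries and 0 without HC3. In the 6 libraries alone 108 of the 108 tested had the same direction. Those 6 libraries also define the comparison in which the genes were called, so this shared direction is not an independent check. With all 24 libraries, Epha8 turned to 0.48, Caskin1 to 0.049, Mt1 to -0.14, Ctsk to -0.084 and Acp5 to -0.18, and Acp5 ran from -0.64 without HC3 to 1.71 without H503 as each library was left out. Library sizes alone moved the median of all genes to 0.25 and all 24 libraries to 0.22, against 0.02. The cause of these moves was not tested, beyond that fits of hip caps alone hold fewer libraries and that their dispersion was 0.23 in 10 hip caps against 0.14 in the 22 libraries.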
